A study of Mus musculus with 12 samples.

Results

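The genes described here are 10 genes of Toll-like receptor recognition of microbes: Tlr1, Tlr2, Tlr4, Tlr6, Tlr7, Tlr8, Tlr9 and Tlr13, the LPS co-receptor gene Cd14 and the adaptor gene Myd88. They were taken by symbol from 24346 gene symbols measured by RNA-seq in 12 libraries, and all 10 reached an FPKM of 1 in 2 libraries or more, as did 11662 genes in all. FPKM counts fragments relative to the length of the transcript and to the depth of the library. The cells were myeloid-derived suppressor cells (MDSCs), immature myeloid cells that suppress T cells, sorted from tumors of Hepa 1-6 cells, a mouse hepatoma line, grown in the liver of C57BL/6J mice. The libraries formed 6 groups of 2: M-MDSCs (CD11b+, Ly-6C high, Ly-6G-) and PMN-MDSCs (CD11b+, Ly-6C intermediate, Ly-6G+), each from mice given vehicle, MS-275 or CXD101. Both drugs inhibit histone deacetylases of class I and were given by daily intraperitoneal injection at 5 mg/kg for 10 days, with collection on day 21 after tumor inoculation. The wild-type mice were female and 6 to 8 weeks old, and were chosen for a high proportion of MDSCs in the blood before dosing. The schedule is given for the M-MDSC groups by the study's methods, which do not describe the PMN-MDSC libraries.

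Toll-like receptors (TLRs) are membrane proteins that bind conserved microbial molecules and are a defining part of the equipment of monocytes and neutrophils. At the cell surface, TLR2 pairs with TLR1 or TLR6 to bind bacterial lipoproteins, and TLR4 binds LPS that CD14 hands over. In endosomes, TLR7 and TLR8 bind single-stranded RNA, TLR9 binds DNA with unmethylated CpG and TLR13 binds a sequence of bacterial ribosomal RNA. All of these receptors signal through the adaptor MyD88 to NF-κB and interferon regulatory factors.

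Tlr1 and Tlr6 are neighbors on chromosome 5 (GRCm38, minus strand), separated by 18467 bases, and parts of their coding sequence are identical. The sequence is shown because it bears on how far reads of the 2 genes can be told apart. The longest identical run was 229 bases, at chr5:64925537-64925765 in the coding part of exon 4 of 4 of Tlr1-202 and at chr5:64953828-64954056 in the coding part of exon 2 of 2 of Tlr6-201. The 100 bases before it, at chr5:64925766-64925865 and chr5:64954057-64954156, differed at the base in capitals only.

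Tlr1, 100 bases before the run: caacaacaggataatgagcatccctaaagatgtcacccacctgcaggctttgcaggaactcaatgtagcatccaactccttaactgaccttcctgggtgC

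Tlr6, 100 bases before the run: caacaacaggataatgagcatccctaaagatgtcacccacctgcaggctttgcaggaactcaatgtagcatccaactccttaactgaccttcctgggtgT

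Run identical in Tlr1 and Tlr6: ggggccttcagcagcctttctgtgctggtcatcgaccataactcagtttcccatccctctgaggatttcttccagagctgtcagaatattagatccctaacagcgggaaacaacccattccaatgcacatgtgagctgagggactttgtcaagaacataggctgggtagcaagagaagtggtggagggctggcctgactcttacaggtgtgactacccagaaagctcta

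Of the 101-base windows of Tlr1-202, 256 (8.75%) were identical in Tlr6, and the same 256 were 7.16% of the windows of Tlr6-201. Values of both genes are therefore uncertain by the reads of these windows. The longest run shared by Tlr7 and Tlr8, which lie 40599 bases apart on chromosome X, was 13 bases, and Tlr2, Tlr4, Tlr7, Tlr8, Tlr9, Tlr13 and Cd14 had no such window identical in another gene. Myd88 overlaps Acaa1a on the other strand of chromosome 9, and 124 windows (6.67%) of Myd88-201 were also in Acaa1a transcripts. The kit marks the strand, but the strand setting of the authors' counting is not given in the sources used here.

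RefSeq's promoter table (GRCm38.p6) matched 7 of the 10 genes, with 9 start sites in all. The 250 bases before the start site are shown for 4 genes that were called in one of the comparisons of inhibitor with vehicle, with capitals marking the letters that were searched for on both strands.

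Tlr2, chr3:83841609-83841858, minus strand: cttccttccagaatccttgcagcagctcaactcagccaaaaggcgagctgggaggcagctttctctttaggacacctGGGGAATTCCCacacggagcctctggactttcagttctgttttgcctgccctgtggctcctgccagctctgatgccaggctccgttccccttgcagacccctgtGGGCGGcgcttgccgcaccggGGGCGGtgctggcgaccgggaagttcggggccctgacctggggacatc

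Tlr1, chr5:64933559-64933808, minus strand: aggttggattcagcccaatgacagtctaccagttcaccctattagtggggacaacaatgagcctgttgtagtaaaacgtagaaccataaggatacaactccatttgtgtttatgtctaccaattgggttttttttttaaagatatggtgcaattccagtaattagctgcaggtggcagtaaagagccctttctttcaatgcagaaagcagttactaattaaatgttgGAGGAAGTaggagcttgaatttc

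Tlr13, chrX:106143025-106143274, plus strand: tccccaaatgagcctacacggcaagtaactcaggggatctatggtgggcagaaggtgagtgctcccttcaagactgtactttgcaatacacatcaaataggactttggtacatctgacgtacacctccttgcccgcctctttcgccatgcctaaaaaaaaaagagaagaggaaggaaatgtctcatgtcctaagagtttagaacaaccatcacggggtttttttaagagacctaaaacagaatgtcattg

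Myd88, chr9:119340019-119340268, minus strand: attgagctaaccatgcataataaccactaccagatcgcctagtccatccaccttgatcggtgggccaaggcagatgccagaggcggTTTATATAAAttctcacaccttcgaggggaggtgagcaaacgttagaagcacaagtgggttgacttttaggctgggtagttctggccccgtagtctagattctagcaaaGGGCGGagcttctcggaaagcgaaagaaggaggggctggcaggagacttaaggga

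The NF-κB letters were a GGG followed by 5 bases of any kind and then CC, and the letters for PU.1, the main transcription factor of myeloid cells, were GAGGAAGT. The AP-1 letters were TGANTCA. The GC box letters were GGGCGG and the TATA box letters were TATAAA. The Tlr2 window held 2 overlapping NF-κB matches, from 173 to 163 bases before the start site, and 2 GC boxes. NF-κB letters occurred in 45.8% and GC boxes in 32.7% of 32851 promoter windows of the same length. The Tlr1 window, from 1 of its 2 start sites, held a PU.1 match from 23 to 16 bases before the start site, letters found in 2.44% of all windows. Myd88 had 1 GC box match and 2 overlapping matches to the TATA letters, from 164 to 155 bases before the start site. The TATA letters were found in 12.4% of windows. The Tlr13 window held none of the 5 sets of letters.

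The libraries were estimated at 8.12 to 10.5 M reads in M-MDSCs and 6.76 to 7.88 M in PMN-MDSCs, from the steps between low FPKM values. Members were covered by an estimated 39 reads (Tlr9) to 4676 reads (Tlr2) in a library, and Tlr1 by 41 to 171. Replicates correlated across genes with r of 0.995 to 0.996 on the log2(FPKM + 1) scale. In PMN-MDSCs, S100a8 and S100a9 together took 10.2% to 13.7% of all FPKM under vehicle and 27.3% to 30.9% under the inhibitors, against 1.78% to 4.28% in M-MDSCs. Dividing each library by its FPKM sum (TPM) moved the median log2 difference of all genes in PMN-MDSCs to -0.35 under each inhibitor, from -0.03. For the 10 genes, TPM results are therefore given where they end a call or turn a direction. Calls of pathway genes outside the 10 were not examined on the TPM scale. Libraries were compared with limma on log2(FPKM + 1) with Benjamini-Hochberg (BH) adjustment over all genes tested. A gene was called at an adjusted p under 0.05 and a fold change above 1.5, and only called genes are said to rise or fall. The sorted cells are bulk samples, so fewer cells of a type and less RNA per cell cannot be told apart.

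**Figure D1:**
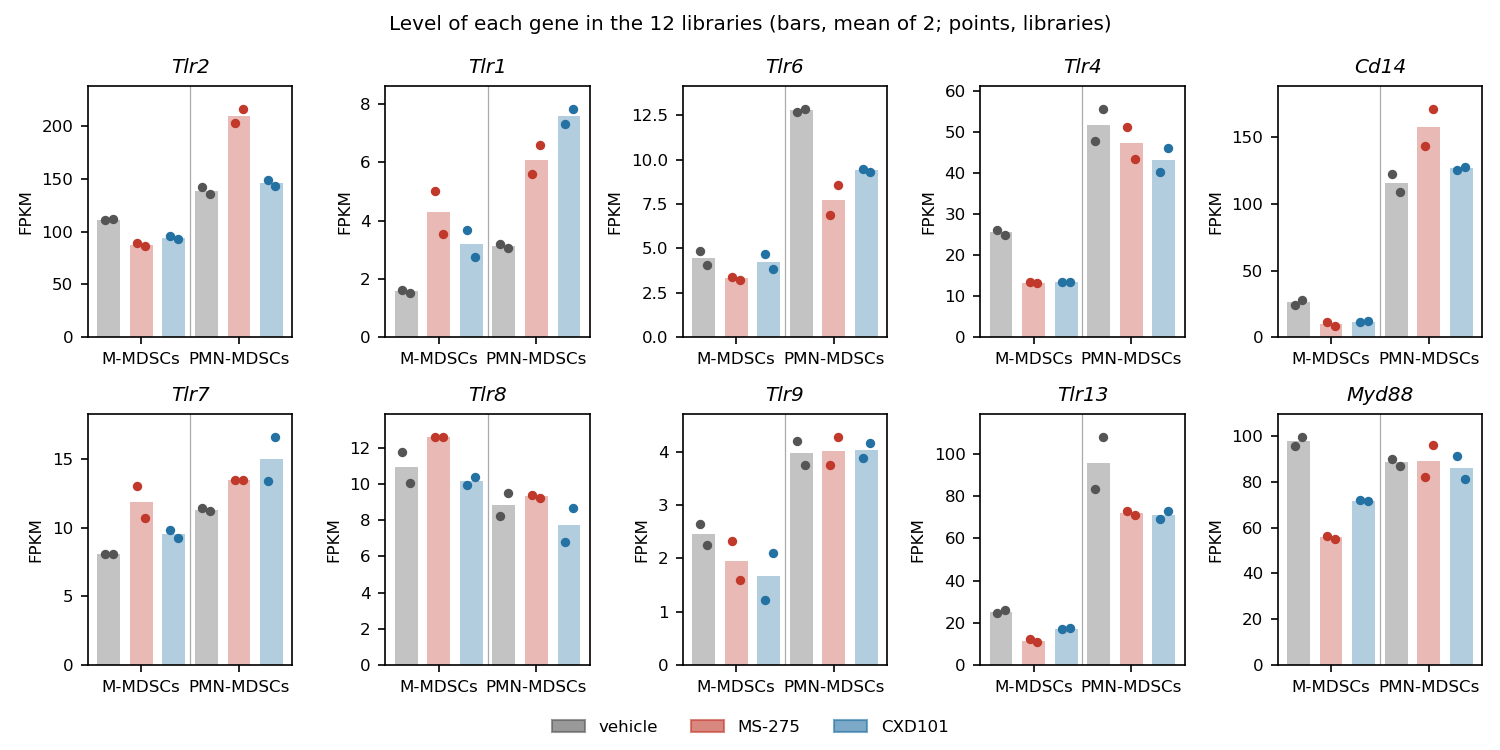
FPKM (y axis, linear, from 0) of the 10 genes in the 2 libraries of each of the 6 groups; bars are means of 2 libraries and points are the libraries, colored by treatment. Cd14 was at 8.36 to 28.2 FPKM in the M-MDSC libraries and at 109 to 171 in the PMN-MDSC libraries, and Tlr1 was lowest in M-MDSCs under vehicle.

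Under vehicle, 5 of the 10 genes were called higher in PMN-MDSCs (Cd14, Tlr13, Tlr6, Tlr4 and Tlr1) and none was called lower, where 17.2% of all 11662 genes tested were called higher and 16.8% lower. Counting those below the fold limit, 8 of the 10 genes had an adjusted p under 0.05, as did 62% of all genes tested. The lowest among the other members was that of Tlr8, at 0.0617 (limma, BH). The median log2 difference was 0.61 over the members and -0.01 over all genes, and 50.6% of all calls were higher, against 35.1% on the TPM scale.

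Cd14 encodes the surface protein that passes LPS to TLR4. It was at 23.9 and 28.2 FPKM in M-MDSCs and at 122 and 109 FPKM in PMN-MDSCs under vehicle. Both PMN-MDSC libraries lay far above both M-MDSC libraries, with a log2 difference of 2.11 ± 0.13 (SE; adjusted p = 2.72e-07, limma, BH). Tlr13 was at 24.4 and 26.1 FPKM in M-MDSCs and at 83.6 and 108 FPKM in PMN-MDSCs, a log2 difference of 1.87 ± 0.11 (adjusted p = 1.39e-07, limma, BH). Tlr4 was at 26.3 and 25.1 FPKM against 47.9 and 55.8 FPKM, a log2 difference of 0.98 ± 0.10 (adjusted p = 8.46e-06, limma, BH). In each of these genes all 6 PMN-MDSC libraries, treated ones included, lay above all 6 M-MDSC libraries. The same held for Tlr2, Tlr6 and Tlr9, and the share of all genes so separated was not counted.

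Tlr6 and Tlr1, the partners of TLR2, were both low in M-MDSCs. Tlr6 was at 4.84 and 4.06 FPKM in M-MDSCs and at 12.7 and 12.9 FPKM in PMN-MDSCs, a log2 difference of 1.34 ± 0.12 (adjusted p = 4.27e-06, limma, BH). Tlr1 was at 1.62 and 1.52 FPKM against 3.20 and 3.07 FPKM, a log2 difference of 0.68 ± 0.15 (adjusted p = 0.00253, limma, BH). The groups did not overlap in either gene. On the scale of FPKM + 1, Tlr1 passed the fold limit narrowly, and under quantile normalization, at 0.58, it did not. Its ratio of mean FPKM, without the pseudocount, was 1.99. Tlr2 itself was the highest of the 10 genes in every group and differed less, with 111 and 112 FPKM in M-MDSCs and 142 and 136 FPKM in PMN-MDSCs, a log2 difference of 0.31 ± 0.06 that was below the fold limit (adjusted p = 0.000522, limma, BH).

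The other endosomal receptors and the adaptor differed less between the subsets under vehicle. Tlr7 was at 8.12 and 8.09 FPKM in M-MDSCs and at 11.4 and 11.2 FPKM in PMN-MDSCs, a log2 difference of 0.44 ± 0.11 (adjusted p = 0.00568, limma, BH) below the fold limit. Tlr9 had 2.65 and 2.25 FPKM against 4.20 and 3.75 FPKM, a log2 difference of 0.53 ± 0.17 (adjusted p = 0.0206, limma, BH), also below it. Its ratio of mean FPKM, without the pseudocount, was 1.62. With a pseudocount of 0.1 its difference was 0.68 and was called, and on the TPM scale it was 0.43 and was not. Without M-MDSC vehicle replicate 1 or PMN-MDSC vehicle replicate 2 it was 0.61 and 0.59, above the fold limit. Tlr8, at 11.8 and 10.1 FPKM in M-MDSCs and 8.22 and 9.50 FPKM in PMN-MDSCs, had a log2 difference of -0.27 ± 0.12 that was not called. Myd88 was at 95.8 and 99.9 FPKM in M-MDSCs and 89.9 and 87.2 FPKM in PMN-MDSCs, with a difference of -0.14 whose 95% interval ran from -0.31 to 0.03.

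The 4 mouse TLR genes outside the set were low. Tlr3, Tlr11 and Tlr12 stayed below 1 FPKM in all 12 libraries, and Tlr5, the flagellin receptor gene, was at 0.0331 to 0.604 FPKM in M-MDSCs and at 1.09 to 3.78 FPKM in PMN-MDSCs. Csf1r of monocytes was at 145 to 160 FPKM in PMN-MDSCs under vehicle, above the 123 FPKM of both M-MDSC libraries. Ccr2 was at 35.7 to 40.7 FPKM there against 137 to 147 FPKM. Fcgr1 was at 23.1 to 24.1 against 24.6 to 25.1 FPKM. In the same order, neutrophil markers summed to 70077 to 95924 and 10883 to 11611 FPKM. Macrophage markers summed to 191 to 200 and 150 to 152 FPKM, though Mrc1 among them had means of 49.3 and 80.6 FPKM. Dendritic cell markers summed to 54.3 to 62.5 and 18.1 to 18.4 FPKM. The part of cell mixture in the subset differences was not tested. Markers of T and NK cells summed to at most 3.42 FPKM and those of erythroid cells to at most 0.873 FPKM in any library.

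In M-MDSCs under MS-275, the LPS receptor genes, Tlr13 and Myd88 were lower than under vehicle and Tlr1 was higher. Of the 10 genes, 4 fell (Cd14, Tlr13, Tlr4 and Myd88) and 1 rose, where 7.32% of 11078 genes tested were called lower and 10.1% higher. Under CXD101, 2 genes fell (Cd14 and Tlr4) and Tlr1 rose, where 3% of genes were called lower and 5.14% higher. The median log2 change of the members was -0.34 under MS-275 and -0.31 under CXD101, against -0.06 and -0.02 over all genes. Both comparisons use the same 2 vehicle libraries, so their agreement is not independent.

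Tlr4 was at 26.3 and 25.1 FPKM under vehicle, 13.4 and 13.2 FPKM under MS-275 and 13.5 and 13.6 FPKM under CXD101. The 4 treated libraries lay close together, and the means under MS-275 and CXD101 were 51.9% and 52.7% of the vehicle mean. Its log2 change was -0.90 ± 0.07 with MS-275 (adjusted p = 4.3e-05) and -0.87 ± 0.07 with CXD101 (adjusted p = 0.000177, limma, BH). Cd14 was at 23.9 and 28.2 FPKM under vehicle, 11.3 and 8.36 FPKM under MS-275 and 11.1 and 11.8 FPKM under CXD101. The vehicle libraries stood above all 4 treated ones, and the log2 change was -1.33 ± 0.14 with MS-275 (adjusted p = 0.000144) and -1.12 ± 0.14 with CXD101 (adjusted p = 0.001, limma, BH).

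Tlr13 and Myd88 were called with MS-275 and stayed below the fold limit with CXD101. Tlr13 was at 24.4 and 26.1 FPKM under vehicle, 12.1 and 10.7 FPKM under MS-275 and 17.0 and 17.4 FPKM under CXD101. Its log2 change was -1.08 ± 0.08 with MS-275 (adjusted p = 3.51e-05, limma, BH) and -0.53 ± 0.08 with CXD101, which passed the test but not the fold limit (adjusted p = 0.00344, limma, BH). Myd88 was at 95.8 and 99.9 FPKM under vehicle, 56.4 and 55.2 FPKM under MS-275 and 72.0 and 71.6 FPKM under CXD101. The 3 groups were separate and ordered the same way in both genes, and the log2 change of Myd88 was -0.80 ± 0.06 with MS-275 (adjusted p = 2.37e-05) and -0.44 ± 0.06 with CXD101, again below the fold limit (adjusted p = 0.00128, limma, BH). Acaa1a, which overlaps Myd88, was at 41.5 to 42.1 FPKM under vehicle and 32.3 to 32.4 FPKM under MS-275, a log2 change of -0.36 (adjusted p = 0.00178, limma, BH).

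Tlr1 moved the other way. It was at 1.62 and 1.52 FPKM under vehicle, 5.02 and 3.54 FPKM under MS-275 and 3.66 and 2.74 FPKM under CXD101, so the treated libraries were all above the vehicle libraries but spread widely. The log2 rise was 1.02 ± 0.17 with MS-275 (adjusted p = 0.00169) and 0.70 ± 0.17 with CXD101 (adjusted p = 0.0211, limma, BH). The call with CXD101 ended when either vehicle library (adjusted p = 0.0730 and 0.0833) or CXD101 replicate 1 (adjusted p = 0.117, limma, BH) was left out, and also with no filter on low genes or with quantile normalization. Tlr6, its neighbor, was at 4.84 and 4.06 FPKM under vehicle, 3.42 and 3.22 FPKM under MS-275 and 4.66 and 3.82 FPKM under CXD101, and was not called.

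Tlr2 and the other endosomal receptor genes were not called in M-MDSCs. Tlr2 was at 111 and 112 FPKM under vehicle, 89.7 and 86.2 FPKM under MS-275 and 95.8 and 93.2 FPKM under CXD101, with log2 changes of -0.34 ± 0.06 and -0.24 ± 0.06 that were below the fold limit (adjusted p = 0.00152 and 0.0183, limma, BH). Tlr7 was at 8.12 and 8.09 FPKM under vehicle, 13.03 and 10.7 FPKM under MS-275 and 9.85 and 9.27 FPKM under CXD101. Its log2 change with MS-275, 0.49 ± 0.10 (adjusted p = 0.00559, limma, BH), was below the fold limit and passed it, at 0.62, without MS-275 replicate 2. Tlr8 ranged from 9.93 to 12.6 FPKM and Tlr9 from 1.22 to 2.65 FPKM over the 6 M-MDSC libraries.

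**Figure D2:**
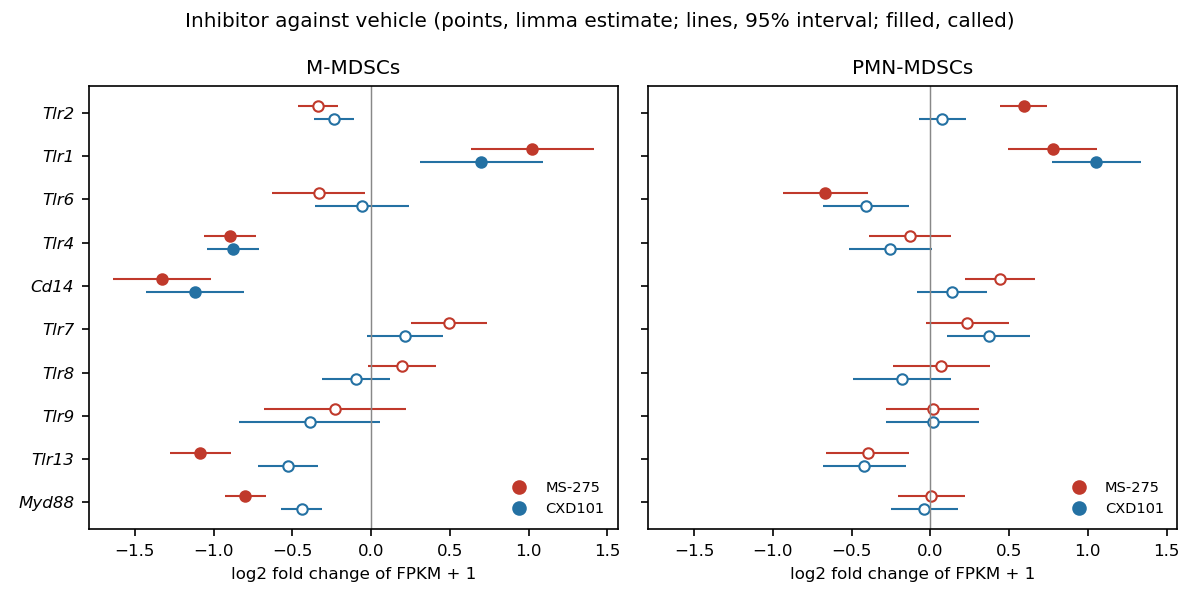
Log2 fold change of FPKM + 1 of each gene (x axis) for MS-275 and CXD101 against vehicle in M-MDSCs (left) and PMN-MDSCs (right); points are limma estimates, lines 95% intervals, and filled points were called. Cd14 and Tlr4 lie to the left of 0 in M-MDSCs under both inhibitors (-1.33 and -0.90 with MS-275), and Tlr1 lies to the right of 0 in all 4 comparisons.

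Markers of other cell types moved in the same libraries. In M-MDSCs, 9 neutrophil markers summed to 10883 to 11611 FPKM under vehicle, 21709 to 25648 FPKM under MS-275 and 21206 to 22485 FPKM under CXD101, and 8 eosinophil markers to 160 to 197, 389 to 418 and 377 to 408 FPKM. The 9 macrophage markers summed to 150 to 152 FPKM under vehicle, 76.3 to 82.5 FPKM under MS-275 and 123 to 140 FPKM under CXD101. Timd4 was at 0 in all 3 groups. Against this sum, means under vehicle, MS-275 and CXD101 were 40.2, 56.1 and 45.0 FPKM for Adgre1 and 3.62, 5.70 and 5.60 FPKM for Apoe. The 7 dendritic cell markers summed to 18.1 to 18.4 FPKM under vehicle and 6.78 to 8.62 FPKM under the inhibitors. S100a8 and S100a9 made up most of the neutrophil sum, and the other neutrophil genes did not move together under MS-275. Means under vehicle and MS-275 were 8.85 and 3.63 FPKM for Mmp9, 67.3 and 33.2 FPKM for Camp, and 87.4 and 30.4 FPKM for Ltf. Going up, they were 112 and 784 FPKM for Mmp8, 2.96 and 20.2 FPKM for Cxcr2, and 9.61 and 24.6 FPKM for Csf3r. Retnlg was at 3.39 and 2.96 FPKM. The 7 monocyte markers summed to 1612 to 1685 FPKM under vehicle and 2315 to 2700 FPKM under the inhibitors, of which Ly6c2 had means of 1333, 2421 (MS-275) and 2076 (CXD101) FPKM. In the same order, the means were 142, 124 and 131 FPKM for Ccr2, 123, 96.0 and 103 FPKM for Csf1r, and 24.9, 6.69 and 10.3 FPKM for Fcgr1, opposite to the sum. The 9 hepatocyte and liver tumor markers summed to 61.7 to 64.7 FPKM under vehicle and 47.5 to 52.5 FPKM under the inhibitors, nearly all of it Trf, with Ttr, Krt8 and Serpina1a at 0. Markers of plasmacytoid dendritic cells, which use TLR7 and TLR9, summed to at most 6.57 FPKM and those of B cells to at most 13.9 FPKM in any library. The part of these cells in the changes of Cd14, Tlr4, Tlr13 and Myd88 was not tested.

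In PMN-MDSCs, Cd14, Tlr4 and Myd88 were not called under either inhibitor, and the genes called were those of TLR2 and its partners. Of the 10 genes, 2 rose (Tlr2 and Tlr1) and 1 fell (Tlr6) with MS-275, where 14.6% of 11184 genes tested were called higher and 14.2% lower. With CXD101, Tlr1 rose and no other of the 10 was called, where 11.9% of genes were called higher and 9.54% lower. For CXD101, 1 of 10 called is below the share of all genes called in either direction, and for MS-275, 3 of 10 is close to it. Of all calls, 50.7% with MS-275 and 55.4% with CXD101 were higher, against 21.7% and 19.6% on the TPM scale. The median log2 change of the members was 0.04 under MS-275 and -0.01 under CXD101, and of all genes -0.03 in both.

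Tlr2 was at 142 and 136 FPKM under vehicle, 203 and 217 FPKM under MS-275 and 149 and 143 FPKM under CXD101. Both CXD101 libraries lay slightly above both vehicle libraries and were not called. The MS-275 libraries lay further above, with a log2 rise of 0.59 ± 0.06 (adjusted p = 0.000196, limma, BH). This was just over the fold limit, and the call ended, with adjusted p still at 0.00101 and 0.00198 (limma, BH), when vehicle replicate 2 (0.56) or MS-275 replicate 2 (0.55) was left out. On the TPM scale the log2 change was 0.24 and not called, and relative to the median of all genes on that scale it was 0.59.

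Tlr1 was at 3.20 and 3.07 FPKM under vehicle, 5.60 and 6.58 FPKM under MS-275 and 7.31 and 7.83 FPKM under CXD101. The 3 groups did not overlap, and the log2 rise was 0.78 ± 0.12 with MS-275 (adjusted p = 0.00124) and 1.05 ± 0.12 with CXD101 (adjusted p = 0.000426, limma, BH). On the TPM scale the first was 0.51 and no longer called. Tlr6 was at 12.7 and 12.9 FPKM under vehicle, 6.87 and 8.58 FPKM under MS-275 and 9.49 and 9.31 FPKM under CXD101. All treated libraries were below both vehicle libraries, and the log2 change was -0.67 ± 0.12 with MS-275 (adjusted p = 0.00214, limma, BH) and -0.41 ± 0.12 with CXD101, below the fold limit (adjusted p = 0.024, limma, BH). The call with MS-275 ended without MS-275 replicate 1, at -0.52. Under MS-275 the 2 partner genes of Tlr2, neighbors on chromosome 5 with shared sequence, thus changed in opposite directions in the same bulk libraries.

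Cd14 was at 122 and 109 FPKM under vehicle, 144 and 171 FPKM under MS-275 and 126 and 128 FPKM under CXD101, with log2 changes of 0.44 ± 0.10 (adjusted p = 0.00574) and 0.14 ± 0.10 (adjusted p = 0.27, limma, BH); neither passed both limits, and the second was -0.21 on the TPM scale. Tlr4 was at 47.9 and 55.8 FPKM, 51.2 and 43.5 FPKM, and 40.4 and 46.1 FPKM in the same order. The MS-275 libraries overlapped both other groups, and both CXD101 libraries were below both vehicle libraries without passing the test (adjusted p = 0.101, limma, BH); on the TPM scale its log2 change with CXD101 was -0.60 and was called. Myd88 was at 89.9 and 87.2 FPKM under vehicle, 82.4 and 96.1 FPKM under MS-275 and 91.3 and 81.4 FPKM under CXD101, and the 95% intervals of its log2 change ran from -0.21 to 0.22 and from -0.25 to 0.17. Tlr13 was at 83.6 and 108 FPKM under vehicle, 73.0 and 71.1 FPKM under MS-275 and 69.0 and 72.8 FPKM under CXD101. Its log2 changes of -0.40 and -0.42 had adjusted p of 0.0199 and 0.0189 (limma, BH) but were below the fold limit; on the TPM scale they were -0.75 and -0.77 and were called. Without vehicle replicate 2 they were -0.21 (adjusted p = 0.0599) and -0.23 (adjusted p = 0.0496, limma, BH), and without vehicle replicate 1 the change with CXD101 was -0.60 and was called. The first vehicle library lay closer to the treated ones than to its replicate.

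Tlr7, Tlr8 and Tlr9 were not called in PMN-MDSCs. Tlr7 was at 11.4 and 11.2 FPKM under vehicle, 13.5 and 13.5 FPKM under MS-275 and 13.4 and 16.7 FPKM under CXD101, with log2 differences of 0.23 (-0.093 on the TPM scale) and 0.37 below the fold limit. Without CXD101 replicate 2 the latter was 0.22 (adjusted p = 0.195, limma, BH). Tlr8 ranged from 6.79 to 9.50 FPKM and Tlr9 from 3.75 to 4.29 FPKM over the 6 libraries. In PMN-MDSCs the summed macrophage markers were at 191 to 200 FPKM under vehicle and 112 to 143 FPKM under the inhibitors, and dendritic cell markers at 54.3 to 62.5 FPKM and 13.2 to 14.1 FPKM. The summed neutrophil markers were at 70077 to 95924 FPKM under vehicle and 241225 to 276525 FPKM under the inhibitors. Eosinophil markers were at 341 to 377 FPKM and 383 to 491 FPKM, monocyte markers at 664 to 742 FPKM and 1546 to 1796 FPKM, and hepatocyte and liver tumor markers at 157 to 163 FPKM and 234 to 274 FPKM. Of the monocyte sum, Ly6c2 had means of 483, 1582 and 1523 FPKM (vehicle, MS-275 and CXD101), whereas Csf1r was at 153, 62.0 and 71.9 FPKM, Ccr2 at 38.2, 29.7 and 27.8 FPKM and Cx3cr1 at 1.35, 0.270 and 0.328 FPKM. Of the hepatocyte sum, Trf made up nearly all, at 158, 269 and 231 FPKM, with Alb, Ttr, Serpina1a and Krt8 at 0. Among neutrophil genes, Mmp9 went against the sum, at 1061, 675 and 709 FPKM. Of the eosinophil sum, Ear6 was the largest part, at 215, 244 and 302 FPKM, and Ear2 moved the same way. Prg2, at 34.6, 23.8 and 23.4 FPKM, and Epx went against that sum. Apoe went against the macrophage sum, at 15.1, 48.2 and 22.0 FPKM, whereas Mrc1 went with it. Adgre1, the largest macrophage marker, was at 87.5, 83.3 and 67.7 FPKM. The part of these cells in the changes of Tlr2, Tlr1 and Tlr6 was not tested.

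The responses of M-MDSCs and PMN-MDSCs were compared by an interaction contrast fitted to the 12 libraries together. For MS-275, 5 of the 10 genes had a higher response in PMN-MDSCs than in M-MDSCs (Cd14, Tlr2, Myd88, Tlr4 and Tlr13) and none a lower one, where 8.65% of 11662 genes were called higher and 9.48% lower. For CXD101, 2 genes had a higher response in PMN-MDSCs (Cd14 and Tlr4), where 7.31% of genes were called higher and 6.59% lower. Higher calls were 47.7% (MS-275) and 52.6% (CXD101) of all calls, against 10.9% and 12.7% on the TPM scale.

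Cd14 differed most, by 1.77 ± 0.19 on the log2 scale for MS-275 (adjusted p = 0.000104) and 1.25 ± 0.19 for CXD101 (adjusted p = 0.00107, limma, BH). Both differences were also called on the TPM scale, at 1.42 and 0.94. Tlr4 differed by 0.77 ± 0.14 for MS-275 (adjusted p = 0.00231) and 0.62 ± 0.14 for CXD101 (adjusted p = 0.00939, limma, BH). Without PMN-MDSC vehicle replicate 1 or CXD101 replicate 2 the latter was 0.51 and 0.53 and was below the fold limit.

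Tlr2 had a mean under MS-275 of 78.9% of vehicle in M-MDSCs and of 151% in PMN-MDSCs, an interaction of 0.93 ± 0.08 (adjusted p = 3.04e-05, limma, BH). Myd88 differed by 0.81 ± 0.11 (adjusted p = 0.000478, limma, BH) and Tlr13 by 0.69 ± 0.15 (adjusted p = 0.00641, limma, BH) for MS-275, and Tlr13 was below the fold limit without PMN-MDSC vehicle replicate 1, at 0.50. On the TPM scale, where the median of all genes was -0.34, the MS-275 interactions of Tlr2, Tlr4, Tlr13 and Myd88 were 0.54, 0.40, 0.33 and 0.42 and were no longer called, and those of Tlr1, Tlr6 and Tlr7 were called lower, at -0.68, -0.68 and -0.64. On that scale the CXD101 interaction of Tlr4 was 0.30 and no longer called, and that of Tlr6 was called lower at -0.68, with a median of all genes of -0.31. Relative to those medians, the MS-275 differences were 0.88 for Tlr2, 0.74 for Tlr4, 0.67 for Tlr13 and 0.76 for Myd88. Tlr1 had interactions of -0.25 ± 0.22 for MS-275 and 0.35 ± 0.22 for CXD101, so a difference between the subsets in its rise was not detected.

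**Figure D3:**
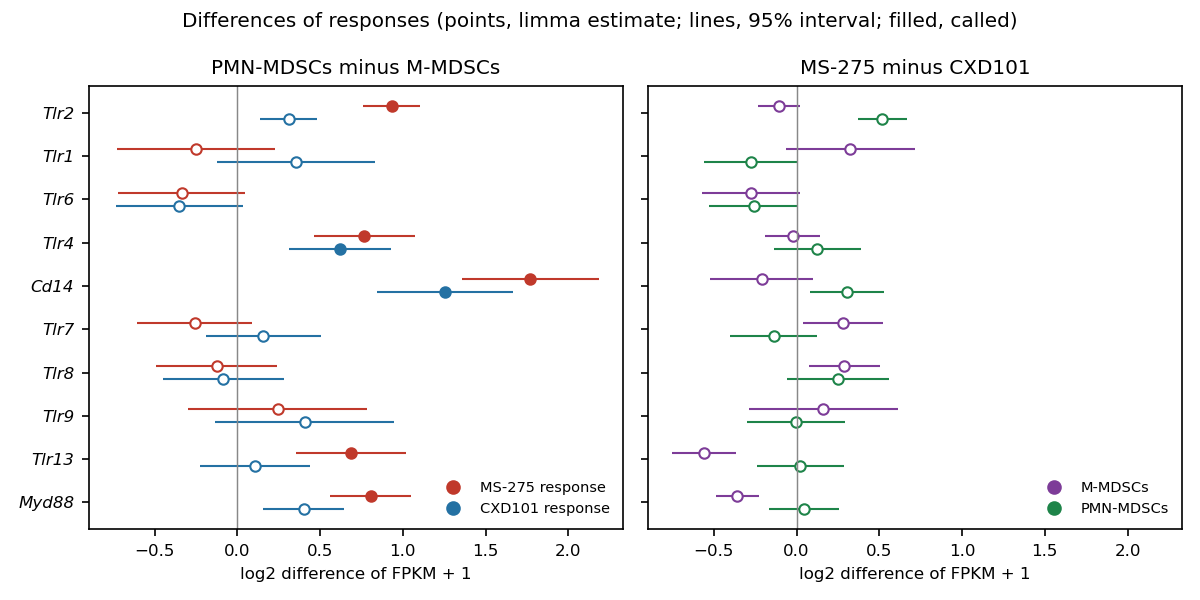
Left, difference in log2 response to MS-275 and to CXD101 between the subsets (PMN-MDSCs minus M-MDSCs); right, difference between MS-275 and CXD101 within each subset; points are limma estimates, lines 95% intervals and filled points were called. Cd14 has the largest subset difference for both inhibitors (1.77 and 1.25), and no gene was called between the inhibitors.

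MS-275 and CXD101 were given at the same dose and time, and their effects were compared directly in the 10 genes of each subset. None of the 10 was called in M-MDSCs, where 4.4% of all genes were called, or in PMN-MDSCs, where 0.805% were. Without the fold limit, 13.7% and 1.17% of all genes had an adjusted p under 0.05. In M-MDSCs, 2 genes had an adjusted p under 0.05 and were lower under MS-275: Tlr13, by a log2 difference of -0.56 (95% interval -0.75 to -0.36, adjusted p = 0.00571, limma, BH), and Myd88, by -0.36 (-0.49 to -0.23, adjusted p = 0.00675, limma, BH). Tlr13 passed the fold limit with a pseudocount of 0.1, at -0.59, and without MS-275 replicate 1, at -0.64. In PMN-MDSCs, Tlr2 was higher under MS-275 by 0.52 (0.37 to 0.66, adjusted p = 0.0233, limma, BH), below the fold limit, and leaving out a library took its adjusted p to as high as 0.155.

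For the other genes the intervals bound the difference between the inhibitors. The interval of Tlr4 was -0.19 to 0.14 in M-MDSCs and -0.14 to 0.39 in PMN-MDSCs, so a 1.5-fold difference lies outside both. That of Cd14 was -0.52 to 0.10 and 0.08 to 0.53, and that of Tlr1 -0.07 to 0.71 and -0.56 to 0.00. These intervals are not adjusted for the number of genes.

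Beyond the 10 genes, the pathway was read from lists of accessory proteins, adaptors, transcription factors, inhibitors, output genes and other sensors. Among 11 accessory proteins and chaperones, Lbp, which encodes the plasma protein that brings LPS to CD14, rose and Cd36, a co-receptor of TLR2 and TLR6, fell under both inhibitors in both subsets. With MS-275, 1 of the 11 rose and 2 fell in M-MDSCs, and 2 rose and 5 fell in PMN-MDSCs. With CXD101, 1 rose and 1 fell in M-MDSCs, and 2 rose and 4 fell in PMN-MDSCs. Of all genes in M-MDSCs, 7.32% (MS-275) and 3% (CXD101) were called lower and 10.1% and 5.14% higher. In PMN-MDSCs, 14.2% and 9.54% were called lower and 14.6% and 11.9% higher. Lbp was at 16.9 and 17.2 FPKM in vehicle M-MDSCs, 36.3 and 38.2 FPKM under MS-275 and 34.8 and 31.9 FPKM under CXD101. In PMN-MDSCs it went from 6.44 and 5.97 FPKM to 41.7 and 45.7 FPKM and to 42.3 and 39.7 FPKM, log2 rises of 2.63 and 2.54 (adjusted p = 1.51e-06 and 2.54e-06, limma, BH).

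Ly96 encodes MD-2, the LPS-binding partner of TLR4. It fell in M-MDSCs with MS-275, from 5.70 and 7.14 FPKM to 1.07 and 2.99 FPKM, a log2 change of -1.36 (adjusted p = 0.00365, limma, BH), and in the same cells it was at 4.36 and 4.74 FPKM with CXD101. It was lower under MS-275 than under CXD101 in M-MDSCs by 0.95 on the log2 scale, which just passed the test (adjusted p = 0.0497, limma, BH). Thus all 3 genes of the LPS receptor complex, Tlr4, Cd14 and Ly96, fell in M-MDSCs under MS-275. In PMN-MDSCs none of these 3 was called under either inhibitor, and the subset difference for Ly96 was 1.57 for MS-275 (adjusted p = 0.0125, limma, BH). Cd180 and Ly86, which encode a TLR4-related receptor and its partner MD-1, fell in PMN-MDSCs, Cd180 from 22.5 and 24.4 FPKM to 6.22 and 5.78 FPKM with MS-275 and to 6.54 and 7.13 FPKM with CXD101. Unc93b1, which carries endosomal TLRs out of the endoplasmic reticulum, fell in PMN-MDSCs with MS-275 by 0.72 on the log2 scale (adjusted p = 0.000168, limma, BH).

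Among 18 adaptors and proximal kinases, 1 rose and 1 fell with MS-275 in M-MDSCs, none was called with CXD101 in M-MDSCs, 1 rose and 2 fell with MS-275 in PMN-MDSCs, and 1 fell with CXD101 there; of all genes tested, 17.5%, 8.13%, 28.7% and 21.4% were called in these comparisons. Of 12 IKK, NF-κB and IRF genes, Relb, Nfkb2 and Irf5 fell in all 4 comparisons with vehicle. In PMN-MDSCs 2 of the 12 rose with MS-275 and 1 with CXD101, and in M-MDSCs 0 rose with either. Of all genes, 7.32% (MS-275) and 3% (CXD101) were called lower in M-MDSCs, and 14.2% and 9.54% in PMN-MDSCs. Relb and Nfkb2 encode the transcription factors of the alternative NF-κB pathway, and IRF5 acts downstream of MyD88. Relb went from 8.41 and 9.41 FPKM to 2.21 and 2.24 FPKM with MS-275 in M-MDSCs, a log2 change of -1.62 (adjusted p = 3.07e-05, limma, BH). Irf7, an interferon regulatory factor that acts with TLR7 and TLR9, rose in PMN-MDSCs, from 12.9 and 12.9 FPKM to 32.6 and 34.6 FPKM with MS-275 and 33.6 and 32.0 FPKM with CXD101.

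Of 20 negative regulators, 19 were tested. With MS-275 in M-MDSCs 2 rose and 3 fell, with CXD101 there 1 fell, and with each inhibitor in PMN-MDSCs 3 rose and 2 fell. Of all genes tested, 17.5% (MS-275) and 8.13% (CXD101) were called in M-MDSCs, and 28.7% and 21.4% in PMN-MDSCs. The counts of negative regulators in PMN-MDSCs were close to the shares of all genes. Atf3, which encodes a repressor of TLR-induced cytokine genes, fell in all 4 comparisons, and Sigirr, an inhibitory receptor of the IL-1 and TLR family, was at 3.62 and 4.33 FPKM in vehicle M-MDSCs and 8.05 and 9.20 FPKM with MS-275. Of 18 inflammatory output genes, 11 were tested in M-MDSCs and 13 in PMN-MDSCs. They did not move as 1 group: the neutrophil chemokine gene Cxcl3 rose and the cytokine gene Il6 fell in all 4 comparisons. Cxcl3 went from 36.9 and 40.1 FPKM to 307 and 271 FPKM with MS-275 in PMN-MDSCs, and Il6 from 2.41 and 2.35 FPKM to 0.148 and 0.420 FPKM. Of 14 sensors outside the family, 1 rose and 2 fell with MS-275 in M-MDSCs, and 5 rose and 2 fell in PMN-MDSCs. With CXD101, 1 rose and 3 fell in M-MDSCs, and 4 rose and 2 fell in PMN-MDSCs. The shares of all genes called are those given above. Clec7a, the receptor gene for fungal glucan, fell by 1.81 and 2.11 on the log2 scale in PMN-MDSCs with MS-275 and CXD101. The only other TLR gene that could be tested, Tlr5, rose in PMN-MDSCs. It went from 1.09 and 2.16 FPKM to 3.01 and 2.81 FPKM with MS-275 (adjusted p = 0.0341, limma, BH). With CXD101 it went to 3.78 and 3.72 FPKM (adjusted p = 0.00874, limma, BH). Its log2 rise with MS-275, 0.61, was just over the fold limit and was not examined on the TPM scale.

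**Figure D4:**
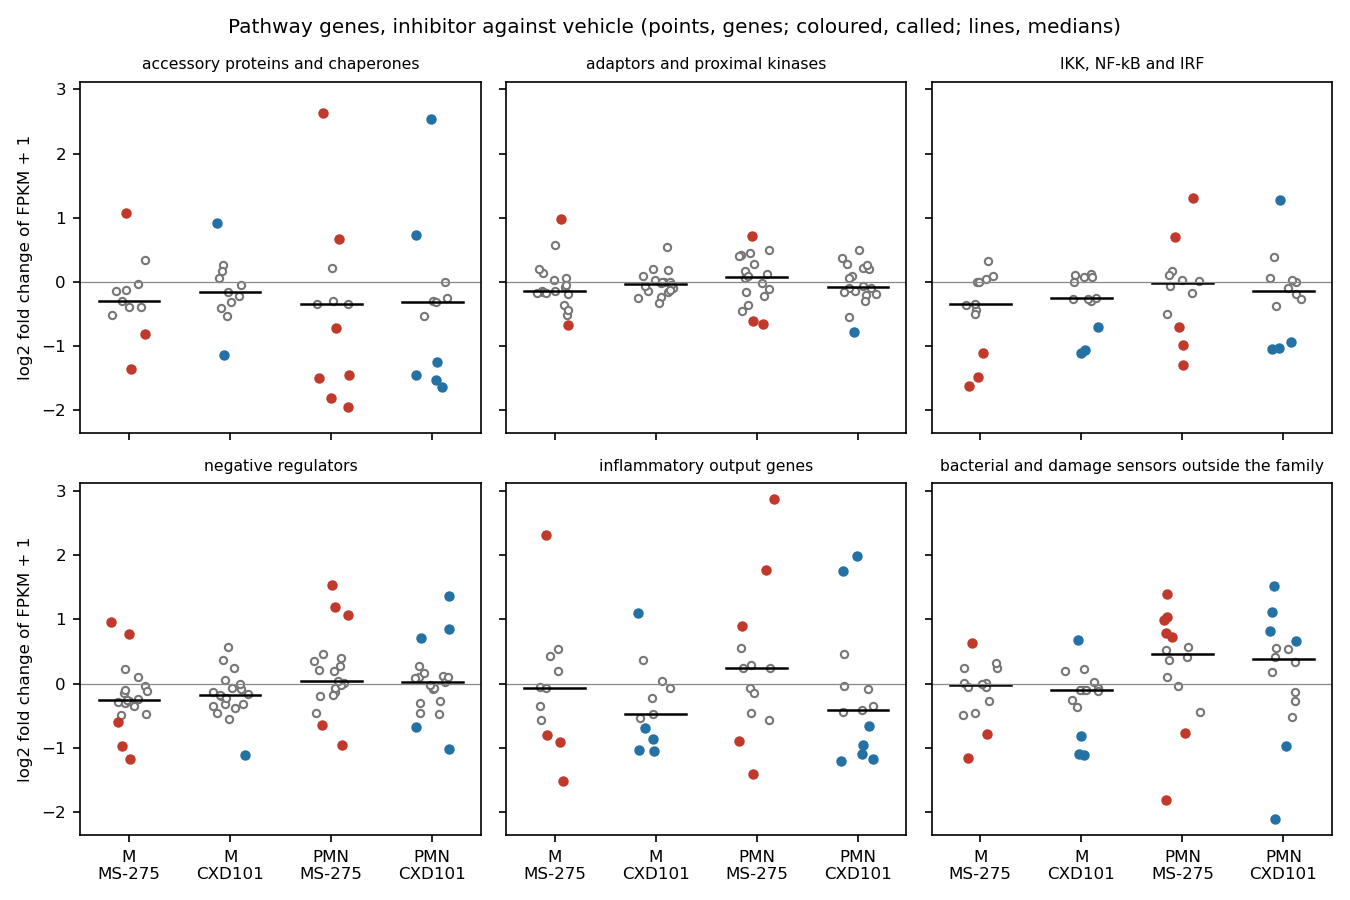
Log2 fold change of FPKM + 1 (y axis) of the tested genes of 6 pathway lists, for each inhibitor against vehicle in M-MDSCs (M) and PMN-MDSCs (PMN); points are genes, colored where called, and black lines are list medians. Lbp, at 2.63 and 2.54, is the highest point of the accessory proteins in PMN-MDSCs, and most adaptors and kinases are not colored.

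The genes whose log2(FPKM + 1) values followed each member most closely over the 12 libraries were taken by Pearson's r among 11652 genes. Cd14 was closest to Ehd1 (r = 0.997), Tlr13 to Apobr (r = 0.996), Tlr4 to Kctd12 (r = 0.993) and Tlr6 to Scrg1 (r = 0.988). Tlr1 was closest to Zfp385c (r = 0.974), Tlr9 to Ndfip2 (r = 0.97), Tlr2 to Erich1 (r = 0.967), Myd88 to Wdr1 (r = 0.966), Tlr7 to Gbp2 (r = 0.956) and Tlr8 to 4930455C13Rik (r = 0.946). These values describe 12 libraries that fall into 2 subsets of cells.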

How the data were processed

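RNA-seq was measured in 12 libraries of 6 groups, taken from the labels. The authors deposited 1 FPKM table per library, so fragments were already scaled by transcript length and library size. The submitters' processing notes name TopHat2 2.1.1, Bowtie2 2.2.8, SAMtools 0.1.18, Cuffdiff 2.2.1 and mm10; the annotation is not given in the sources used here. The paper calls the M-MDSC libraries biological replicates; for PMN-MDSCs nothing says whether they came from separate mice, and p-values there measure the spread between the libraries.

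Values with a pseudocount of 1 were log2-transformed and tested with limma 3.58.1 (R 4.3.3; lmFit, contrasts, eBayes with intensity trend). A gene entered a model when 2 or more of its libraries reached an FPKM of 1, and p-values were adjusted over all such genes by the Benjamini-Hochberg method. Each subset had a model of its 6 libraries. The subset difference and interactions used all 12. The procedure was tested on simulated data. The SE of a log2 change had a median of 0.0975 (M-MDSCs) and 0.114 (PMN-MDSCs). Depth was estimated from the steps of values up to 0.5 FPKM, of which 68.8% to 79.2% lay within 0.15 of a whole read; no count test was run. Named genes were the 10 members, the other TLR genes, and called pathway genes with the largest rise or fall in each list; Nfkb2, Unc93b1 and Acaa1a were named after their values were seen. Genes, lists and tests were chosen with earlier results of these data known. Acod1 was found under its older symbol Irg1; Ly6g, Ighm and Hbb-bt were not analysed here. Sequences came from GENCODE vM21 (GRCm38) and RefSeq; Python 3.11.15, numpy 2.4.6, pandas 2.3.3 and matplotlib 3.10.9 were used. Alternatives covered the pseudocount, filter, scaling, replicate block, trend, libraries in the model, the fold limit and each library left out.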

Additional observations from a re-analysis of the deposited data

Results flagged for a closer look

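For 9 results, the response to an inhibitor differed between PMN-MDSCs and M-MDSCs by the interaction test (adjusted p under 0.05, limma with Benjamini-Hochberg adjustment over 11662 genes), on the scale of log2(FPKM + 1) with PMN-MDSCs minus M-MDSCs. For MS-275 these were Tlr2 at 0.93, Tlr4 at 0.77, Cd14 at 1.77, Tlr13 at 0.69 and Myd88 at 0.81. For CXD101 they were Tlr2 at 0.31, Tlr4 at 0.62, Cd14 at 1.25 and Myd88 at 0.40, of which Tlr2 (adjusted p = 0.0157) and Myd88 (adjusted p = 0.0238, limma) were below the fold limit. Over all genes, 31% (MS-275) and 24.2% (CXD101) had an adjusted p under 0.05 by the same test. With TPM scaling, the adjusted p for MS-275 was 0.0928 in Tlr13 (limma, BH). For CXD101 it was then 0.815 in Tlr2, 0.095 in Tlr4 and 0.721 in Myd88 (limma, BH), and the value of Tlr2 was -0.031. Groups of 2 libraries are too small to look for a library that stands apart.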

How the results depend on the processing

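Of 374 values of the 24 called results under the alternatives, 355 kept the call, 19 lost it and none changed sign. The alternative of adjusted p alone is among these and could not end a call. Of 1011 values of the 66 results not called, 33 gained a call and 41 changed sign. Counting by adjusted p alone gave 6 genes for CXD101 in M-MDSCs (3 with the fold limit), 2 between the inhibitors in M-MDSCs and 1 in PMN-MDSCs (0 each), 5 and 4 for MS-275 and CXD101 in PMN-MDSCs (3 and 1), 8 between the subsets (5) and 4 for the CXD101 interaction (2). By that rule the shares of all genes were, in the same order, 23.1%, 13.7%, 1.17%, 53.7%, 45.3%, 62% and 24.2%. A pseudocount of 0.1 called 1 gene (Tlr13) between the inhibitors in M-MDSCs. TPM scaling called 4 genes for CXD101 in PMN-MDSCs (Tlr1, Tlr6, Tlr4 and Tlr13), and for the MS-275 interaction it called 4 genes of which only Cd14 was among the 5 called otherwise. An FPKM limit of 5 left 7 members to test in M-MDSCs and 9 elsewhere. Deviations of same-numbered libraries from their group means had r of -0.126 to 0.179 over 15 pairs of groups. These values cannot show whether same-numbered libraries came from the same tumor, and the main models treated the 12 libraries as independent. With the replicate block the counts were 5, 3 and 0 in M-MDSCs and 3, 1 and 0 in PMN-MDSCs. They were 5 between the subsets and 5 and 2 for the interactions, with no call changed.

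With 1 library left out, counts ran from 5 to 6 (MS-275) and 2 to 3 (CXD101) against vehicle in M-MDSCs, 2 to 3 and 1 to 2 in PMN-MDSCs, 0 to 1 between the inhibitors in M-MDSCs, 5 to 6 between the subsets, and 4 to 5 and 1 to 2 for the MS-275 and CXD101 interactions. Where this left 1 library in a group, that library was assumed to vary like the other groups.

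Signs turned on the TPM scale for MS-275 in PMN-MDSCs in Tlr7 (-0.093), Tlr8 (-0.25), Tlr9 (-0.28) and Myd88 (-0.34), for CXD101 there in Tlr2 (-0.27), Cd14 (-0.21) and Tlr9 (-0.28), for the interactions in Tlr9 (-0.047, MS-275), Tlr2 (-0.031), Tlr7 (-0.17) and Tlr13 (-0.23, CXD101), and between the inhibitors in M-MDSCs in Tlr4 (0.020). Other scalings turned the last to 0.0049 (median of ratios) and 0.018 (quantile), and quantile normalization turned Tlr9 in PMN-MDSCs to -0.052 with either inhibitor and, between them, Tlr9 to 6.574e-05 and Tlr13 to -0.00207.

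Leaving out a library turned the sign in ranges around 0. In M-MDSCs these were -0.17 to 0.058 (Tlr6) and -0.20 to 0.0091 (Tlr8) with CXD101, and -0.081 to 0.40 (Tlr9) between the inhibitors. In PMN-MDSCs they were -0.024 to 0.16 (Tlr8), -0.062 to 0.090 (Tlr9) and -0.10 to 0.12 (Myd88) with MS-275, -0.049 to 0.081 (Tlr9) and -0.12 to 0.044 (Myd88) with CXD101, and between the inhibitors -0.28 to 0.011 (Tlr7), -0.078 to 0.074 (Tlr9), -0.014 to 0.061 (Tlr13) and -0.064 to 0.16 (Myd88). For the CXD101 interaction they were -0.24 to 0.071 (Tlr8) and -0.077 to 0.29 (Tlr13). The cause of these turns was not tested.

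Over all genes, the adjusted p alone called 23.1% to 62% in the comparisons other than those between the inhibitors, against 8.13% to 34% with the fold limit, and TPM called 35.7% for CXD101 in PMN-MDSCs and 29.8% and 25.1% for the interactions, against 21.4%, 18.1% and 13.9%. With an FPKM limit of 5, the calls in M-MDSCs numbered 1269, 591 and 268 (MS-275, CXD101 and between them), against 1934, 901 and 487. Between the inhibitors in PMN-MDSCs, 90 genes were called, but 4 with no filter, 35 with no intensity trend, 151 with all 12 libraries in one model and 10 to 23 with an inhibitor library left out. With an M-MDSC MS-275 library left out, 308 or 309 genes were called between the inhibitors there. Members with few estimated reads, Tlr9 and Tlr1 above all, are the least precise.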
